A study of Mus musculus with 42 samples.

Results

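In lung mesenchymal cells of bleomycin-injured mice, 8617 accessible regions opened by day 14, closed again by day 56, and had no counterpart among the regions gained when such cells were cultured on a stiff gel. They were chosen from the 25518 regions of the authors' deposited ATAC-seq list for day 14 against sham. Of these, 17333 had a higher read concentration at day 14 than in sham, and 13894 of them overlapped, by at least 1 base, a region listed as lower at day 56 than at day 14. A further 5277 were left out because they overlapped a region listed as gained on a 32 kPa gel. The remaining 8617 member regions made up 33.8% of the list and 49.7% of its gained regions. The values that chose them are given as description, without a test.

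The study profiled sorted lung mesenchyme of mice by RNA-seq and by ATAC-seq, which reads out open chromatin through the DNA that a transposase can reach. The injury groups were C57BL/6 mice whose Col1a2-lineage-traced, GFP-positive cells were sorted after sham treatment, at day 14 after bleomycin and at day 56 after bleomycin, with 4 libraries per group and assay. The culture groups were CD1 mice carrying Col1a1-GFP, whose GFP-positive cells were collected fresh (sham) or after 5 days on collagen-coated silicone gels of 0.2 kPa or 32 kPa, with 3 libraries per group and assay. Cells positive for CD45 (leukocytes) and EpCAM (epithelium) were excluded in both strains, and cells positive for CD31 (endothelium) in CD1 alone. Age, sex, bleomycin dose and the construct behind the lineage label are not stated in the sources used here. Strain, reporter and gate differ between the injury and the culture groups, and their part in any difference between the 2 cannot be told apart. Replicates carry numbers, but nothing says that they came from separate animals or cultures. All p-values therefore rest on the spread among these libraries, part of which may be technical.

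Open chromatin away from gene starts often marks enhancers, stretches of DNA that bind transcription factors and act on genes at a distance. AP-1 (dimers of FOS and JUN proteins) and RUNX proteins are factors known to take part in opening enhancers in activated cells, and TEAD proteins carry the YAP and TAZ signals that respond to mechanical load. After bleomycin, which injures the lung and causes fibrosis that resolves in young mice, fibroblasts take on a matrix-producing state rich in collagens, periostin and osteopontin, and later leave it.

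The sequences of 6 member regions are shown because they carry the letters on which the comparison of regions turns, or sit next to genes described below. The regions nearest to Abca13 and Fbxo32 had the largest gains of all member regions, and those nearest to Runx1, Postn, Lef1 and Adam12 had the largest gain among the member regions of each gene. Each is the plus strand of the mm10 genome (RefSeq assembly GRCm38.p6), 5′ to 3′, whole or its central 300 bases, and none overlaps a RefSeq exon. Capitals mark the AP-1 letters TGANTCA and the RUNX letters TGTGGT on either strand, where N is any base and ACCACA is TGTGGT on the other strand. The stretches lie at chr11:9499766-9500065 (Abca13), chr15:58261748-58262047 (Fbxo32), chr16:92852296-92852595 (Runx1), chr3:54434593-54434892 (Postn), chr3:130932804-130933048 (Lef1) and chr7:134250631-134250819 (Adam12).
Abca13 region: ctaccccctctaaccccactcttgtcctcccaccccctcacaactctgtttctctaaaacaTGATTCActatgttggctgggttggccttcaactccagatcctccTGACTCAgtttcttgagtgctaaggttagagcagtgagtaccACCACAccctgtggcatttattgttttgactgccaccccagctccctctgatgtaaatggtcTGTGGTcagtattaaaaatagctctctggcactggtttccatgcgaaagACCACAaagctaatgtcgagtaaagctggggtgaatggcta
Fbxo32 region: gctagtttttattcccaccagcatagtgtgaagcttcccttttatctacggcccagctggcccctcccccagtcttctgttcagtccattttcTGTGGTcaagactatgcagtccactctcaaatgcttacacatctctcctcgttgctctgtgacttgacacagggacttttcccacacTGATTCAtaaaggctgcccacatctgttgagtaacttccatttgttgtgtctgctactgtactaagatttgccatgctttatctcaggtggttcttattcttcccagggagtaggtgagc
Runx1 region: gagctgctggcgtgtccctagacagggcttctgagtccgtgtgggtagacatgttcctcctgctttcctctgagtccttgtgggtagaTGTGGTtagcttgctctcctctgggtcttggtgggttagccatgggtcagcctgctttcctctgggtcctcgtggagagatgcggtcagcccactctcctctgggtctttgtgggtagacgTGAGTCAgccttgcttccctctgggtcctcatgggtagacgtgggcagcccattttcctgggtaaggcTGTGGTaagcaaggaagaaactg
Postn region: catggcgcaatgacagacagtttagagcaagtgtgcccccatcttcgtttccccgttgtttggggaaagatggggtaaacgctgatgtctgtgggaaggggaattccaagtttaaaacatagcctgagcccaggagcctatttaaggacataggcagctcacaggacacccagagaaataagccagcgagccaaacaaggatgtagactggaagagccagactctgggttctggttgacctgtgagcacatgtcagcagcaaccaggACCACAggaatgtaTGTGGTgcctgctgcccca
Lef1 region: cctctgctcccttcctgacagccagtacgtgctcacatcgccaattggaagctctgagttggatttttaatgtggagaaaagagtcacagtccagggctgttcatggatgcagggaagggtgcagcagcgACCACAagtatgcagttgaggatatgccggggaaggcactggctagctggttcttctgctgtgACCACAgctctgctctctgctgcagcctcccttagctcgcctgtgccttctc
Adam12 region: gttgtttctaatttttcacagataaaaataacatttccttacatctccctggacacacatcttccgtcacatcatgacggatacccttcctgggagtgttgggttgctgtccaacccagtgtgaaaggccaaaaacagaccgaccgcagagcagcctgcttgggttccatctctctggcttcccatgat
The Abca13 region held 2 AP-1 and 3 RUNX matches, the Fbxo32 region 1 of each, and the Runx1 region 1 AP-1 and 2 RUNX matches. The Postn and Lef1 regions held 2 RUNX matches and no AP-1 match. The Adam12 region held neither.

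The 6 regions opened and closed with large amplitudes, and most kept more of the gain than is usual in the set. At Abca13, Fbxo32, Postn and Adam12 the day 56 value stayed 1 or more log2 units above sham. Of the member regions that could be compared, 11.5% did so. At the Abca13 region, in an intron of that transporter gene, the authors' log2 concentration was -0.13 in sham, 6.62 at day 14 and 2.26 at day 56, a gain of 6.75. The intergenic region 47005 bases before Fbxo32, which encodes a ubiquitin ligase of muscle wasting, had 0.76, 7.03 and 3.10. Both opened from a level near the lowest in the set and kept part of the gain. The Postn region, annotated 73635 bases after the start of the gene for the matrix protein periostin, had 1.47 in sham, 6.69 at day 14 and 3.20 at day 56. The Lef1 region, 177371 bases before a gene for a WNT-pathway transcription factor, had 1.29, 5.92 and 1.70. The Runx1 region, 26371 bases before the gene start, had 2.90, 7.02 and 3.13. At Lef1 and Runx1 the day 56 value lay within 0.5 log2 units of sham, and at Postn it did not. The Adam12 region, 25628 bases before a gene for a membrane metalloprotease of activated mesenchyme, had 0.79, 5.09 and 1.94. Each of these is 1 group value for 4 libraries, as deposited, so it has no replicate spread here.

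Over all 8617 member regions the median log2 concentration was 3.75 in sham, 5.82 at day 14 and 4.01 at day 56. The median gain at day 14 was 2.01 (quartiles 1.5 and 2.76, range 0.99 to 6.75), and the median change from day 14 to day 56 was -1.72 (range -5.57 to -0.99). Gains under 2 log2 units made up 49.3% of the set, gains of 2 to under 3 made up 31.3%, gains of 3 to under 4 made up 14.8%, and 393 regions (4.56%) gained 4 or more. The member regions just inside the threshold on the gain, at 0.99, were annotated to Adora1, Gcnt1 and Rnf207. Those just inside the threshold on the closing, at -0.99, were annotated to Edar, Ankfn1 and Cdyl. Just outside the set, with the smallest listed gains on 32 kPa (0.43, 0.44 and 0.44), lay regions annotated to Itga5, Htr1b and Arhgap6, which had gained 1.5, 2.60 and 1.51 at day 14.

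By the values that chose the regions, the closing was nearly complete for most of them and partial for a minority. Sham and day 56 values could be set side by side for the 8346 member regions with the same coordinates in both lists. There the median day 56 value lay 0.24 log2 units above sham, and a median of 11.75% of the log2 gain was left. In 5306 regions (63.6%) day 56 lay within 0.5 of sham, in 2461 (29.5%) it lay below sham, and in 956 (11.5%) it was higher by 1 or more. More than 50% of the gain was left in 220 regions (2.64%). The rule bears on these shares, since the smallest fall of a member region was a change of -0.99. For the 49.3% of regions that gained under 2, such a fall is about 50% of the gain or more. The Epha3 region, near a gene for an ephrin receptor, fell from 5.63 to 0.06, the largest closing, against -0.13 in sham. In the authors' own list of day 56 against sham, 103 member regions (1.20%) were higher at day 56 and 0 were lower. Of the 2882 injury-only gains without a recorded closing, 321 (11.1%) were higher. Those gains were set apart for the lack of a listed closing, so the rule bears on that contrast too.

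**Figure D1:**
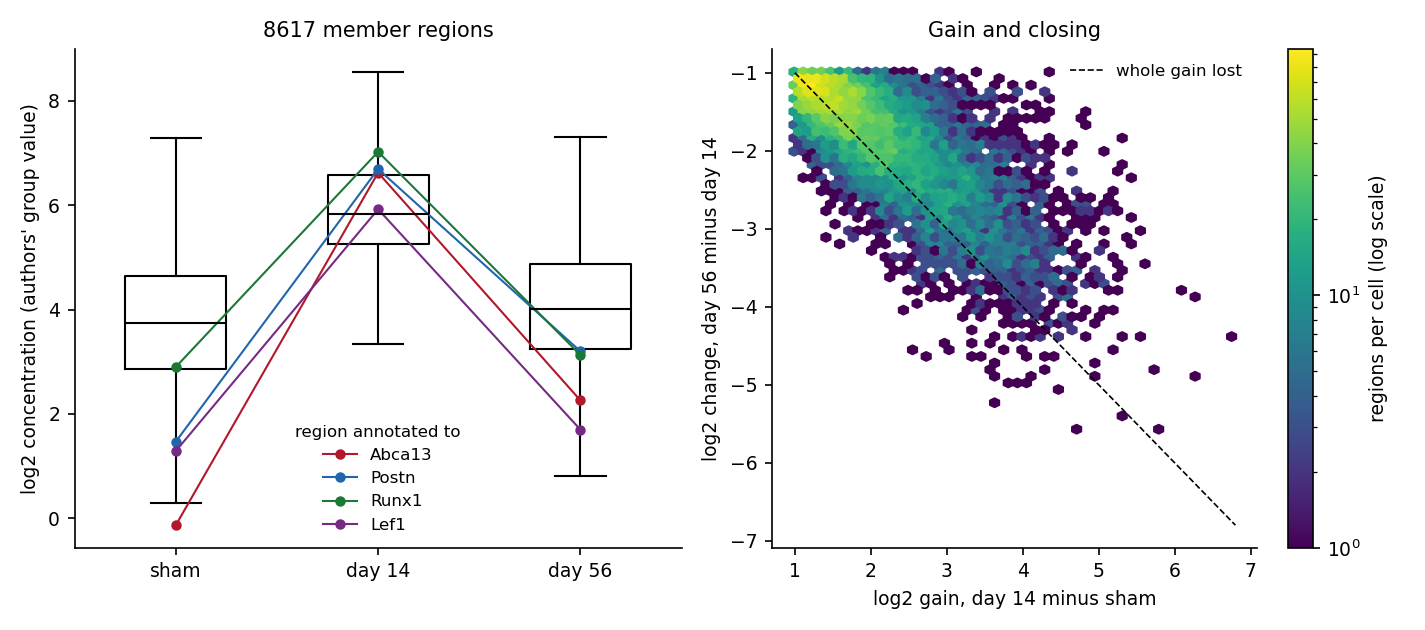
Left, the authors' log2 read concentration (y axis) of the 8617 member regions in sham, day 14 and day 56, as boxes of the median and quartiles with whiskers to the farthest value within 1.5 interquartile ranges, with 4 named regions as lines. Right, the log2 change from day 14 to day 56 (y axis) against the log2 gain at day 14 (x axis), coloured by regions per hexagon on a log scale. The box medians are 3.75, 5.82 and 4.01, and most regions lie close to the dashed line on which the whole gain is lost.

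The member regions were distal. HOMER annotation, as deposited, placed 4176 between genes, 3782 (43.9%) in introns, 307 (3.56%) at a promoter or transcription start site, and few in exons or UTRs. The median distance to the nearest start site was 30876 bases. Promoter regions gained less, a median of 1.58 against 2.12 for intergenic regions, and started from a higher sham level, a median of 4.38 against 3.65. The promoter share was near-equal, 3.5%, among the 2882 injury-only gains without a recorded closing. Among the 5834 regions gained both in injury and on 32 kPa it was 1.37%. Member regions were also narrower than those shared regions, with a median width of 238 against 295 bases, and sat closer together, since 16.5% against 9.75% of gaps between neighbours were at most 10 kb. The number of regions in each set bears on that spacing. The densest run was 12 member regions within chr5:119183727-119233257, all annotated to the predicted gene Gm7538, with a median gain of 3.24.

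In culture, 8247 member regions (95.7%) overlapped no region of either gel list. That is fixed by the rule for gains on 32 kPa but not for losses or for the soft gel. There, 321 (3.73%) were listed as lost on 32 kPa, 334 (3.88%) as lost on 0.2 kPa and 14 (0.162%) as gained on 0.2 kPa. Of the 5834 shared regions, 2649 (45.4%) were also gained on 0.2 kPa. Of the 8185 regions lost at day 14, 2600 (31.8%) were also lost on 32 kPa. A region outside the gel lists is not shown to be unchanged there.

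Letters of AP-1 and RUNX motifs were the most frequent of those searched. The central 300 bases of each region were searched on both strands for 9 strings. Besides the AP-1 and RUNX letters given above, TEAD was searched as GGAATG and factors of the bHLH family such as TWIST as CAGATG. The ETS family, whose members bind around a GGAA core, was searched as GGAAGTG, and the GATA family as AGATAA. Letters for CREB and ATF proteins were TGACGTCA, those for C/EBP proteins were TTGCGCAA, and NFI was searched as its full palindromic motif. None of these strings holds another. They differ in length, and longer strings are met less often, so shares of different strings are not on a like footing. AP-1 letters stood in 48.3% of member regions and RUNX letters in 39.4%, 70.3% held at least 1 of the 2 and 17.3% held both. The same letters stood in 7.81% and 16.8% of 32851 RefSeq promoters of the same length, and in 10.1% and 17.2% of the regions lost at day 14. A match of letters is a description and not a bound site.

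The regions shared with the stiff gel differed from the member regions in AP-1 and TEAD more than in RUNX. AP-1 letters stood in 70.8% of the shared regions, and 2 or more matches in 22.5%, against 7.82% of member regions. TEAD letters stood in 30.2% of the shared and 21.6% of the member regions, the latter close to the 21.5% of lost regions. In RefSeq promoters the TEAD share was 14.7%. RUNX letters stood in 38.2% of the shared and 39.4% of the member regions. AP-1 letters stood in 27.0% of the injury-only gains with no recorded closing and RUNX letters in 33.7%, but 2689 of these 2882 regions had gains under 2, against 4250 of the 8617 member regions. Among gains under 2, where the median gain was 1.22 against 1.49, RUNX letters stood in 32.5% of them and 31.6% of the member regions, a near-equal share, while AP-1 letters stood in 27.3% against 46.5% and GATA letters in 17.1% against 12.7%. TWIST-type letters stood in 25.2% of member regions, 38.8% of lost regions and 17.2% of RefSeq promoters. ETS letters stood in 9.19% of member regions and 11% of RefSeq promoters. CREB/ATF, C/EBP and NFI letters stood in 0.592%, 0.162% and 0.0348% of member regions, and in 1.79%, 0.183% and 0.0365% of RefSeq promoters. Median GC content was 49.0% in member regions and 47.3% in shared regions. Narrower regions let more flanking sequence into the 300 bases, which was not corrected for.

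**Figure D2:**
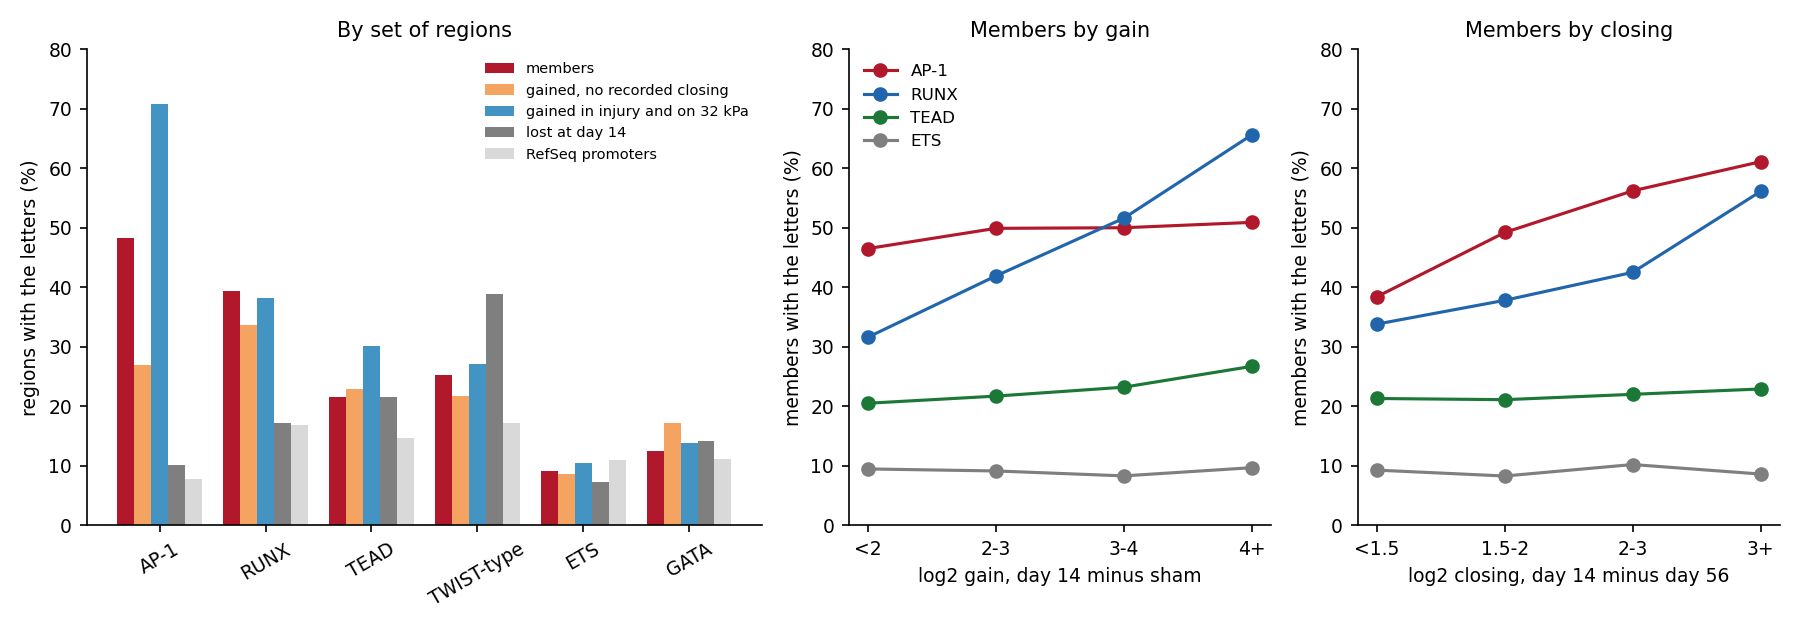
Percent of regions (y axis) whose central 300 bases hold each string of letters, by set of regions with RefSeq promoters for comparison (left), and in member regions by log2 gain at day 14 (middle) and by log2 closing from day 14 to day 56 (right). AP-1 letters stand in 70.8% of the regions shared with the stiff gel and 48.3% of member regions, and the RUNX share of member regions climbs from 31.6% to 65.6% with the gain. The RUNX share also climbs with the gain in the other gained sets, which is not drawn.

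Within the set, RUNX letters went with the size of the opening and AP-1 letters with the size of the closing. The RUNX share was 31.6% for gains under 2, 41.9% for 2 to under 3, 51.6% for 3 to under 4 and 65.6% for 4 or more. Over the same bands the AP-1 share was 46.5%, 49.9%, 50% and 50.9%. The climb of RUNX with the gain was not particular to the set. From gains under 2 to gains of 2 or more, the RUNX share went from 31.6% to 46.9% in member regions. It went from 31.5% to 43.6% in the regions shared with the stiff gel, and from 32.5% to 50.3% in the gains without recorded closing. By size of closing, the AP-1 share was 38.4% under 1.5, 49.2% for 1.5 to under 2, 56.2% for 2 to under 3 and 61.1% for 3 or more. The RUNX share over the closing bands was 33.8%, 37.8%, 42.5% and 56.1%. The TEAD share moved little, between 20.5% and 26.7% over gains and between 21.1% and 22.9% over closings. Gain and closing are tied to each other through the day 14 value, so 2 off-diagonal groups were set side by side. Of 1549 regions that gained 2 or more but closed by under 2, 38.8% held AP-1 and 45.1% RUNX letters. Of 345 regions that gained under 2 but closed by 2 or more, 67.2% held AP-1 and 31.0% RUNX letters. These shares describe regions chosen by the same values, and no test was made.

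The letters lay at the centre of the regions. AP-1 matches numbered 3.67 per kb in the central 100 bases and 0.397 per kb at 400 to 500 bases from the centre. RUNX matches numbered 2.32 and 0.894 per kb, and TEAD matches 0.991 and 0.602. In the regions shared with the stiff gel the AP-1 density at the centre was 5.88 and the RUNX density 2.02 per kb. Of the 8 member regions with the largest gains, 5 held AP-1 and 7 held RUNX letters, and of the 100 largest, 55 and 69 did. The 307 promoter regions held less of both, 25.7% AP-1 and 21.8% RUNX.

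**Figure D3:**
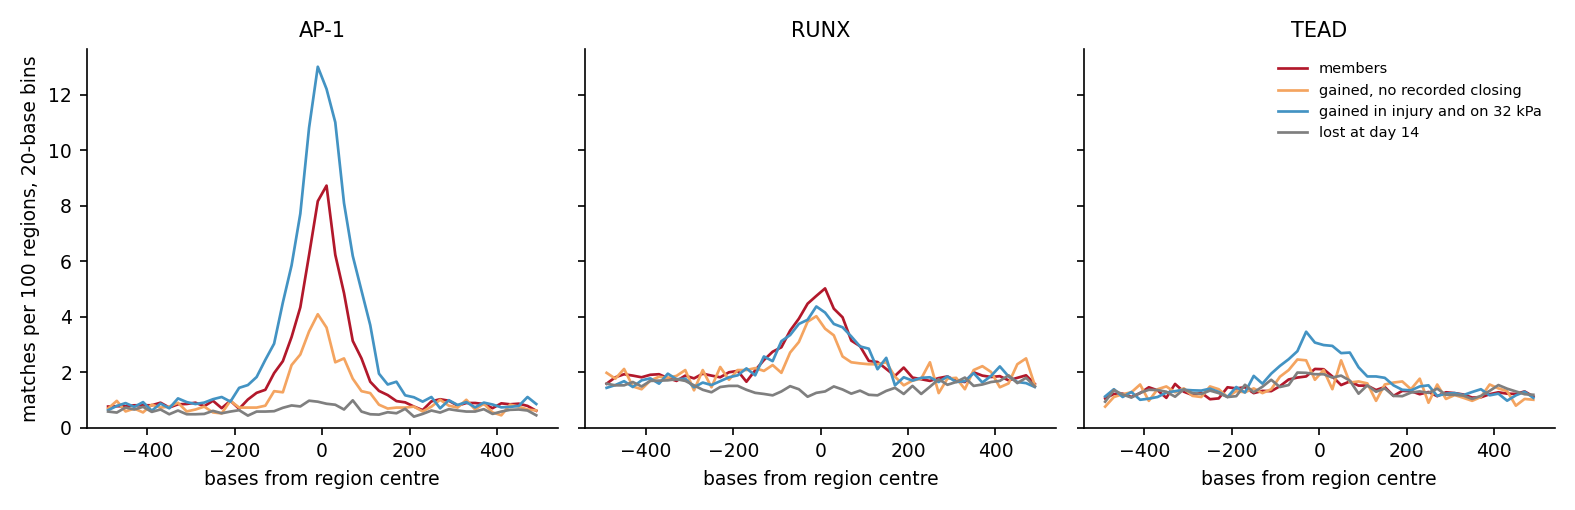
Matches of AP-1, RUNX and TEAD letters per 100 regions in bins of 20 bases (y axis) by distance in bases from the region centre (x axis), for 4 sets of regions. AP-1 matches of member regions peak at the centre at a height between the shared regions and the gains without recorded closing, RUNX peaks reach a like height in members and shared regions, and lost regions show no AP-1 peak of that size.

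The member regions were annotated, by nearest start site, to 4982 genes. A single region was annotated to 60.6% of these genes, and 5 or more to 182 (3.65%). The RNA of these genes was measured in separate libraries of the same conditions and was not used by the rule. Whether RNA and ATAC libraries came from the same animals is not stated, so independence of the assays is not shown. The C57BL/6 table held 4932 of the genes, and 3980 passed a filter of a mean of at least 1 normalised read. Differences are on a log2(value + 1) scale that shrinks changes at low levels, and were tested with limma over all genes of the table. In bulk RNA, fewer cells of a type and less RNA per cell cannot be told apart. Of the C57BL/6 libraries, 4 stood apart in the number of genes with any read. Sham replicates 1 and 2 and day 56 replicates 2 and 3 detected 16545 to 17542 genes and the other 8 detected 19360 to 21359, although 3 of the 4 held 40283444 to 51288435 reads. Results are therefore also given without the 4 libraries that detected under 18000 genes, which leaves 2 of sham and 2 of day 56.

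At day 14 more of the annotated genes rose than fell, and more rose where a gene had more regions or a region at its promoter. Against sham, 620 of 3980 were higher (15.6%, against 9.53% of all genes tested) and 297 were lower (7.46%, against 6.34%), at a limma adjusted p under 0.05. The median log2 change was 0.15, against 0.05 over all genes tested. The share that rose was 13.3% with 1 region, 17.5% with 2, 18.7% with 3 or 4 and 28.5% with 5 or more, and the share that fell was 8.22%, 7.09%, 5.94% and 3.31%. Of 1290 genes with a member region within 10 kb of the start, 21.9% rose. Of 223 genes with a member region at the promoter, 74 (33.2%) rose and 8 fell, with a median log2 change of 1.37. Genes annotated to gained regions outside the set alone, and to no lost region, rose in 15.0% of cases and fell in 4.4%. The like group of annotated genes, those with no lost region, rose in 17.3% and fell in 4.37%. A share of rises above the 9.53% of all genes tested was thus not particular to the set. Where a gene was also annotated to a region lost at day 14, 12.4% rose and 13.2% fell. Without the 4 libraries of few detected genes, 820 of 4015 annotated genes were higher (20.4%, against 13.8% of all genes tested) and 574 lower (14.3%, against 12.2%), so the balance was less one-sided and the median change, 0.05, stood against -0.04 over all genes tested. The share that rose was then 18.2% with 1 region and 32.9% with 5 or more, and 35.9% with a region at the promoter.

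At day 56 the direction turned. Against day 14, 546 annotated genes were lower (13.7%, against 8.46% of all genes tested) and 254 were higher (6.38%, against 5.68%), with a median log2 change of -0.20, against -0.08 over all genes tested. Lower genes made up 27.4% of those with a promoter region (median change -1.72) and 21.2% of those with 5 or more regions. On the values as deposited, where day 56 libraries lie lower for the typical gene (median -0.27), the counts were 808 lower and 168 higher. Without the 3 libraries under 20000000 reads (1 of day 14 and 2 of day 56) they were 309 lower and 144 higher. Without the 4 libraries of few detected genes they were 716 lower (17.8%, against 13% of all genes tested) and 474 higher (11.8%, against 10.4%), with a median change of -0.02. Without day 14 replicate 2 or 3 the number higher was 167 or 169. Against sham, 0 of the 3980 were higher and 0 lower at day 56 by limma (0% and 0.00474% of all genes tested), while 167 and 151 had an unadjusted p under 0.05, edgeR called 0 and 0, and DESeq2 16 and 5. Limma without the 4 libraries of few detected genes called 9 higher (0.224%, against 0.0609% of all genes tested) and 0 lower (against 0.00469%). Both day 14 comparisons use the same 4 day 14 libraries, so their opposite directions are not independent of each other.

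**Figure D4:**
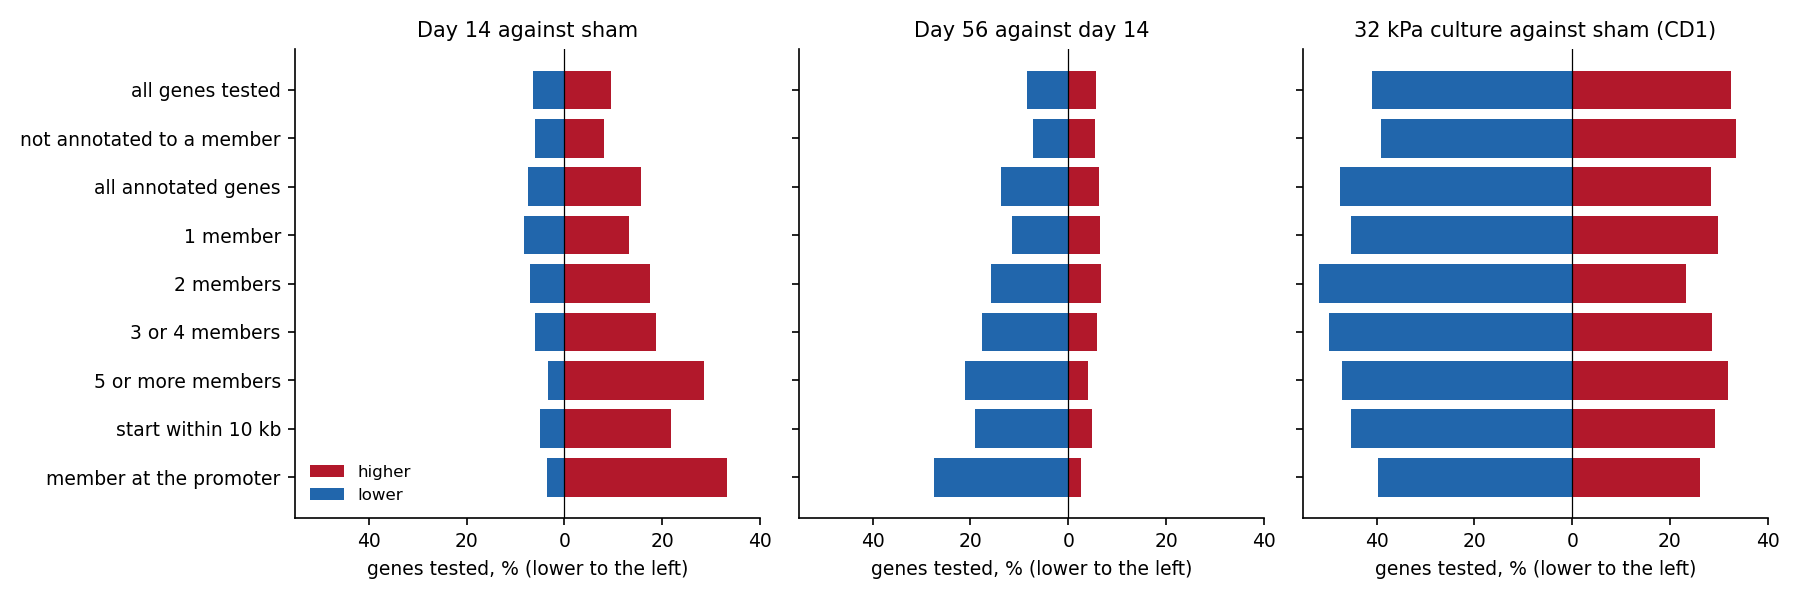
Percent of genes tested that were higher (right, red) or lower (left, blue) at a limma adjusted p under 0.05, for all genes, for genes not annotated to a member region, and for genes annotated to member regions by number and place. The share of genes that rose at day 14 is 33.2% with a region at the promoter and 9.53% over all genes, and the classes differ less on 32 kPa.

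In culture the annotated genes stood lower more often than other genes, mainly where they were also annotated to a region lost at day 14. Of 3976 tested in CD1, 1817 were lower on 0.2 kPa than in fresh cells (45.7%, against 39.2% of all genes tested) and 1150 were higher (28.9%, against 31.9%). On 32 kPa, 1886 were lower (47.4%, against 41%) and 1124 higher (28.3%, against 32.4%). Of the annotated genes with a region lost at day 14, 55.7% were lower on 0.2 kPa and 56.2% on 32 kPa. Of those with no lost region, 40.5% and 42.8% were lower, near the shares of all genes tested. The median log2 change on 32 kPa was -0.53 for annotated genes and -0.26 over all genes tested. Both gels share the 3 fresh libraries. With a region at the promoter, 39.7% were lower and 26.1% higher on 32 kPa.

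Markers of other cells, mainly of leukocytes, moved with day 14 as well. The summed level of 22 leukocyte markers was 13348 to 18537 normalised reads in sham, 31555 to 100528 at day 14 and 9280 to 29461 at day 56, and 16 of the 22 rose at day 14. All 22 were above 0 in every day 14 library and 20 in every sham library. The defining marker Ptprc, which encodes CD45, ran from 211 to 346 in sham and from 283 to 1167 at day 14. Epithelial markers summed to 5560 to 12777 in sham and 1405 to 3561 at day 14, endothelial markers to 11062 to 14537 and 6556 to 10527, and mesenchymal markers to 1469735 to 1991805 and 3734912 to 4518055. Such sums weigh abundant genes most, and the single genes of these lists did not share a direction with them throughout. At day 14, 0 of 17 epithelial markers tested rose and 3 fell. Of 18 endothelial markers 2 rose and 2 fell, and of 12 mesenchymal markers 5 rose and 3 fell. The part of these cells in the results on open regions and on RNA was not tested. In CD1 the leukocyte sum was 6359 to 13111 in fresh cells and 696 to 758 on 32 kPa, where Adgre1, Cd3e, Cd52, Rac2, S100a9 and Tyrobp were among the markers at 0 in every library.

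Runx1 and Bmper carried the most member regions, 15 each. Runx1 encodes a transcription factor of the RUNX family. Its normalised reads were 311, 907, 689 and 871 in sham, 2332, 2689, 3303 and 4130 at day 14, and 1476, 568, 469 and 969 at day 56. Every day 14 library lay above every sham and day 56 library. The log2 change was 2.24 ± 0.38 (SE, limma adjusted p = 0.00116) at day 14 and -1.95 ± 0.38 (limma adjusted p = 0.00354) from day 14 to day 56. Runx1 rose on 32 kPa too, from 320, 439 and 380 in fresh cells to 2044, 2127 and 1690 (2.37 ± 0.14, limma adjusted p = 8.18e-08), although its member regions overlapped no gain there. A further 5 gained regions annotated to Runx1 were shared with the gel.

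Bmper encodes a secreted regulator of bone morphogenetic proteins (BMPs). It had 1495, 1810, 1944 and 1378 reads in sham and 7086, 10268, 8803 and 6298 at day 14 (2.28 ± 0.23, limma adjusted p = 2.03e-05), and fell back to 2795, 2031, 1363 and 2756. Its day 14 libraries lay above all others. Megf11, with 12 member regions and 1 of them at the promoter, encodes a transmembrane protein with EGF-like repeats. It had 0, 102, 70.1 and 66.3 reads in sham and 3579, 2627, 1913 and 2875 at day 14 (6.66 ± 1.16, limma adjusted p = 0.0014). At day 56 it had 420, 73.6, 274 and 781, and the change from day 14 missed the threshold (-3.23 ± 1.16, limma adjusted p = 0.0816), which edgeR, DESeq2 and limma without the libraries of few detected genes passed. Its rise at day 14 was 5.25 without those libraries. Chst11, with 10, encodes a chondroitin sulfotransferase and went from 258, 228, 169 and 213 to 866, 1269, 800 and 519 (1.93 ± 0.29, limma adjusted p = 0.000441).

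Many member regions did not go with a change of RNA in the nearest gene. Foxp1, a forkhead transcription factor with 14 regions, changed by 0.49 ± 0.14 (limma adjusted p = 0.0235), a call that ended without the libraries under 20000000 reads, without those of few detected genes, under the replicate block, and without any of 5 single libraries. Aebp2, which encodes a cofactor of Polycomb repressive complex, also had 14 and changed by -0.20 ± 0.47 (limma adjusted p = 0.843). Gm7538 with 14, 1810053B23Rik with 11, 6030471H07Rik and Gm20740 with 10 each were at or near 0, under 5 reads in every C57BL/6 library. The nearest start site is an annotation and does not show which gene a region acts on.

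**Figure D5:**
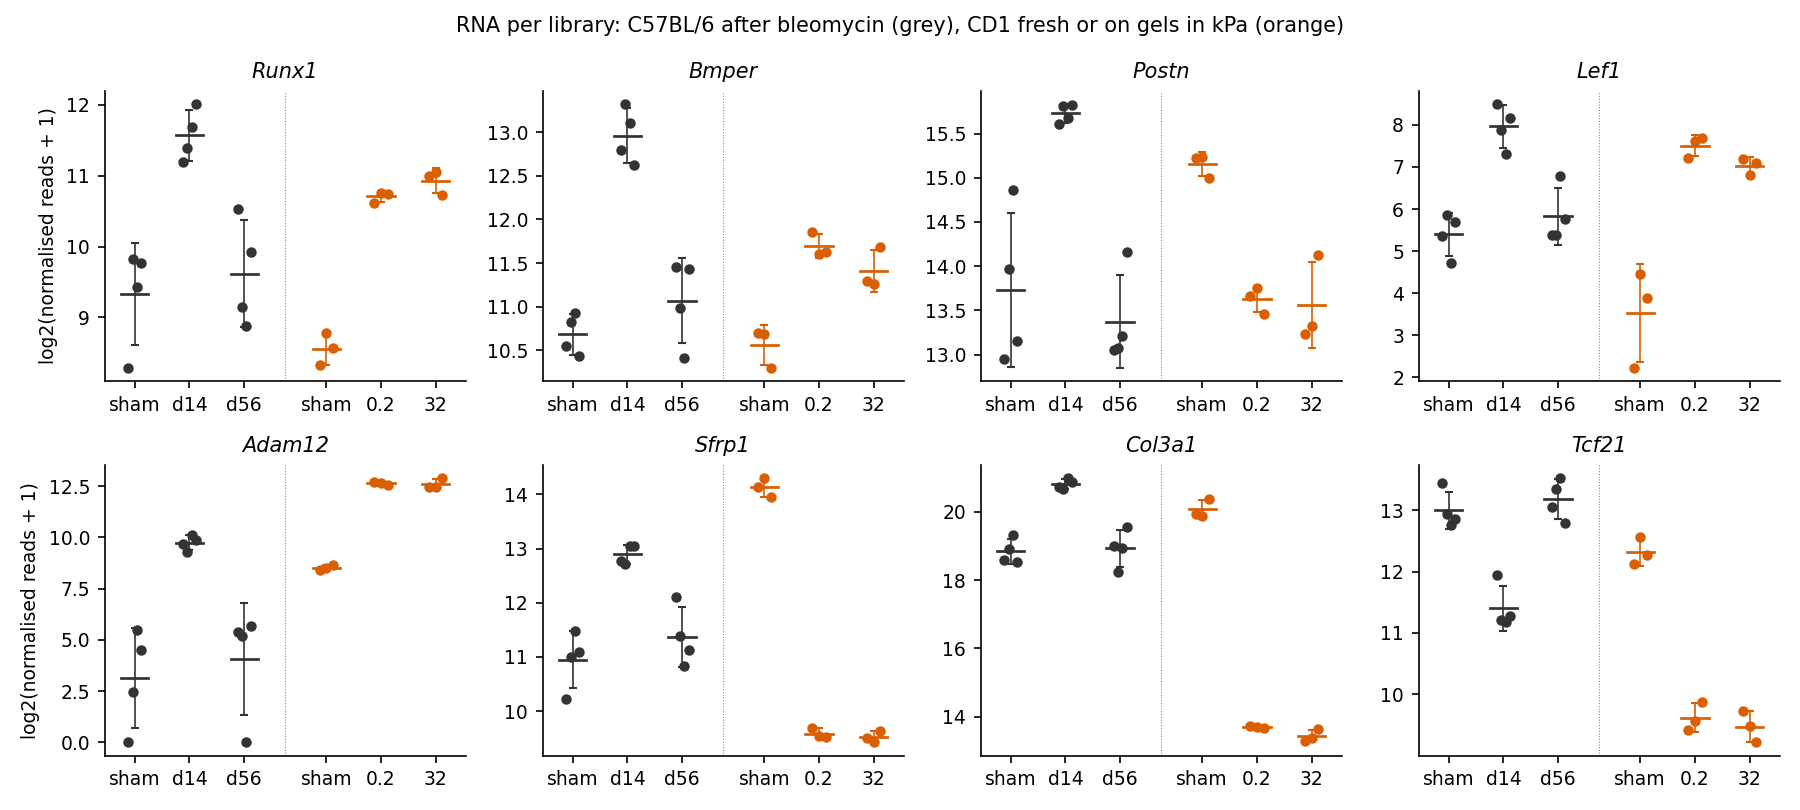
RNA of 8 genes annotated to member regions as log2(normalised reads + 1) (y axis, a separate range per gene) in each library (points), with the mean and SD of each group (lines), for C57BL/6 sham, day 14 and day 56 (grey, n = 4 each) and CD1 fresh cells and gels (orange, n = 3 each). All but Tcf21 stand higher at day 14 than in sham and day 56. Postn, Sfrp1, Col3a1 and Tcf21 stand lower on both gels than in fresh CD1 cells.

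Collagen genes and collagen-processing enzymes rose at day 14 and fell by day 56. Of the 30 listed, 18 were annotated to member regions, against 3980 of all 21111 genes tested. At day 14, 14 of these 18 rose and 0 fell (median log2 change 1.55), against 9.53% and 6.34% of all genes tested. Over the whole list 21 of 30 rose. From day 14 to day 56, 13 of the 18 fell and 0 rose, against 8.46% and 5.68% of all genes tested. Col5a1, a chain of fibrillar collagen V with 3 regions, had 27283, 25869, 31066 and 22626 reads in sham, 94625, 102053, 112708 and 106631 at day 14, and 23587, 13634, 30855 and 31541 at day 56. Its day 14 libraries lay far above all others (1.97 ± 0.22, limma adjusted p = 5.4e-05). Col6a3, of collagen VI, went from 18030, 24682, 19312 and 16095 to 32790, 50104, 52376 and 49479 (1.24 ± 0.28, limma adjusted p = 0.00818). Col8a1 rose by 1.70 ± 0.27 (limma adjusted p = 0.000692). Bmp1, the enzyme that trims the ends of procollagens, rose by 1.20 ± 0.32 (limma adjusted p = 0.0194), a call that ended without day 14 replicate 3 or 4 and without the libraries of few detected genes.

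On the gels the same list ran the other way. Of the 18 collagen genes with member regions, 12 were lower and 2 higher on 32 kPa than in fresh cells. The whole list had the same share lower, 20 of 30 with 5 higher, and 41% of all genes were lower there. Col3a1, of fibrillar collagen III with 2 regions, had 392354, 499330, 662701 and 378180 reads in C57BL/6 sham and 1742676, 1664317, 2093176 and 1911448 at day 14 (1.97 ± 0.29, limma adjusted p = 0.000418). In CD1 it had 1015364, 972533 and 1376103 in fresh cells and 9920, 10651 and 12733 on 32 kPa (-6.65 ± 0.15, limma adjusted p = 1.02e-10). Col6a3 changed by -3.85 ± 0.14 on 32 kPa (limma adjusted p = 1.61e-09), and Col8a1 by 0.32 ± 0.21 (limma adjusted p = 0.191), which did not pass. The tables of the 2 strains were normalised separately, so only differences within a strain are given.

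Matricellular and adhesive glycoproteins, which sit in the matrix and signal to cells, mostly rose too. Of 17 with member regions, 12 rose and 2 fell at day 14, and 11 fell and 2 rose from day 14 to day 56. The whole list had like shares, 17 of 24 up and 3 down at day 14, then 16 down and 3 up. Among all genes tested, 9.53% rose and 6.34% fell at day 14, and 8.46% fell and 5.68% rose by day 56. Postn, with 4 regions, had 7918, 16081, 29799 and 9097 reads in sham, 49730, 57617, 52378 and 57935 at day 14, and 8522, 8636, 9459 and 18302 at day 56. Day 14 stood clear of both other groups (1.99 ± 0.35, limma adjusted p = 0.00147, then -2.35 ± 0.35, limma adjusted p = 0.000544). On 32 kPa Postn fell, from 38397, 38598 and 32783 to 9655, 10294 and 17835 (-1.59 ± 0.20, limma adjusted p = 3.44e-05). Adam12, with 7 regions, had 0, 4.52, 44.1 and 22.1 reads in sham and 822, 622, 1115 and 930 at day 14 (6.62 ± 1.26, limma adjusted p = 0.00267), and rose on 32 kPa as well (4.07 ± 0.13, limma adjusted p = 8.3e-10). Without the libraries of few detected genes its rise at day 14 was 4.70.

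Spp1 encodes osteopontin, made by activated mesenchyme and in large amounts by macrophages of fibrotic lung. A member region lay at its promoter, 53 bases from the start site, with log2 concentrations of 1.80 in sham, 5.57 at day 14 and 2.59 at day 56. Spp1 RNA was 529, 672, 1611 and 1149 reads in sham, 327478, 594704, 392295 and 292883 at day 14, and 2646, 4117, 3523 and 3260 at day 56. The changes were 8.74 ± 0.31 (limma adjusted p = 1.66e-09) and -6.85 ± 0.31 (limma adjusted p = 4.79e-08). Day 56 still lay above sham in all 4 libraries, by 1.89 ± 0.31, which missed the threshold (limma adjusted p = 0.0545) and passed it by DESeq2 and without sham replicate 3. Without the libraries of few detected genes the difference was 1.11 and did not pass (limma adjusted p = 0.408). The leukocyte sums given above move the same way at day 14, and their part in the Spp1 values was not tested. Ltbp1, which binds latent TGF-beta, has 4 regions and changed by 0.34 ± 0.28 (limma adjusted p = 0.474).

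Among transcription factors of fibroblast activation, 14 of the 28 listed had member regions, and 3 rose and 2 fell at day 14. Over the whole list 5 rose and 4 fell, against 9.53% and 6.34% of all genes tested, so it had no common direction. Runx2, another RUNX gene, had 5.13, 2.26, 35.1 and 38.0 reads in sham and 270, 255, 162 and 261 at day 14 (4.17 ± 0.85, limma adjusted p = 0.00402), and 2.61 without the libraries of few detected genes. Its fall by day 56, to 109, 19.0, 13.2 and 55.1, was at the threshold (limma adjusted p = 0.0494). The call was lost in 7 of 8 analyses leaving out 1 of its day 14 or day 56 libraries. It was also lost by edgeR, with a pseudocount of 0.5, without the filter, under the replicate block and without the libraries under 20000000 reads. It was kept without the libraries of few detected genes. Tead1, a TEAD factor, changed by 0.50 ± 0.30 (limma adjusted p = 0.315) and Egr3, an immediate-early factor, by -0.13 ± 0.39 (limma adjusted p = 0.878). On 32 kPa, Runx2 rose (3.36 ± 0.11, limma adjusted p = 1.22e-09), Tead1 rose (1.49 ± 0.14, limma adjusted p = 2.24e-06) and Egr3 fell (-3.97 ± 0.52, limma adjusted p = 4.06e-05).

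Of the TGF-beta pathway, 16 genes with member regions were tested, and 3 rose and 2 fell at day 14. Over the whole list 6 of 27 rose and 2 fell, against 9.53% and 6.34% of all genes tested. Both named genes that rose belong to the activin branch. Inhba, which encodes the activin A subunit, had 401, 661, 500 and 403 reads in sham, 4731, 3933, 4378 and 3834 at day 14, and 520, 466, 524 and 460 at day 56 (3.13 ± 0.18, limma adjusted p = 2.37e-07, then -3.09 ± 0.18, limma adjusted p = 4.55e-07). Fst, which encodes follistatin, an activin-binding inhibitor, had 235, 217, 420 and 206 in sham and 916, 1606, 1124 and 1129 at day 14 (2.18 ± 0.29, limma adjusted p = 0.000179). The ligand gene Tgfb2, with 5 regions, had 1707, 1767, 1944 and 1423 in sham and 2185, 2045, 2608 and 2448 at day 14. Its groups did not overlap, but the change of 0.44 ± 0.17 did not pass (limma adjusted p = 0.1). On 32 kPa, Inhba ran from 1207 to 5916 reads against 264 to 546 in fresh cells (2.33 ± 0.53, limma adjusted p = 0.00207). Fst fell there (-1.62 ± 0.11, limma adjusted p = 2.56e-07) and so did Tgfb2 (-2.46 ± 0.10, limma adjusted p = 5.16e-09), and of the 16 genes with member regions 10 were lower and 6 higher. Over the whole list 14 of 27 were lower on 32 kPa and 10 higher, and of all genes tested 41% were lower and 32.4% higher.

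The WNT and BMP genes split. Of 17 tested, 4 rose and 4 fell at day 14, and of the 26 tested in the whole list 5 rose and 5 fell. Among all genes tested, 9.53% rose and 6.34% fell. Lef1, with 6 regions, had 40.3, 57.3, 25.1 and 50.4 reads in sham, 362, 234, 158 and 286 at day 14, and 40.5, 40.4, 110 and 53.3 at day 56 (2.56 ± 0.46, limma adjusted p = 0.0017, then -2.14 ± 0.46, limma adjusted p = 0.00668). Its day 14 libraries lay above all others. Sfrp1, a secreted WNT inhibitor with 5 regions, had 1200, 2036, 2858 and 2168 in sham and 6950, 6739, 8472 and 8460 at day 14 (1.95 ± 0.27, limma adjusted p = 0.000294). On 32 kPa the signs parted, with Lef1 higher by 3.51 ± 0.49 (limma adjusted p = 6.97e-05) and Sfrp1 lower, from 17972, 20200 and 15902 to 724, 690 and 794 (-4.61 ± 0.11, limma adjusted p = 1.51e-10). The ligand gene Wnt10a, with a member region at the promoter, had 11, 0, 1.00 and 0.885 reads in sham and 119, 82.4, 166 and 189 at day 14 (5.69 ± 1.11, limma adjusted p = 0.00302). Wnt11 changed by -0.41 ± 0.55 (limma adjusted p = 0.694), and by -1.22 without the libraries of few detected genes (limma adjusted p = 0.0499).

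Of 18 contractile genes, 4 were annotated to a member region, near the share of all genes tested, 3980 of 21111. Of these 4, 2 rose and 0 fell at day 14, and over the whole list 9 rose and 2 fell. Among all genes tested, 9.53% rose and 6.34% fell. Actn1, which encodes an actin cross-linker, had 733, 732, 516 and 671 reads in sham and 1563, 1635, 1734 and 2410 at day 14 (1.46 ± 0.19, limma adjusted p = 0.000156). Cald1, which encodes the actin-binding caldesmon, rose by 1.00 ± 0.13 (limma adjusted p = 0.000201). Palld (0.38 ± 0.26, limma adjusted p = 0.378) and Vcl (0.15 ± 0.26, limma adjusted p = 0.772) did not pass. The cell cycle list, 21 of whose 24 genes rose at day 14, had a single gene with member regions, Ccnd1, which encodes cyclin D1 (1.60 ± 0.22, limma adjusted p = 0.000221). No other cell cycle gene of the list was annotated to a member region.

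Alveolar fibroblast markers went down at day 14, also where they carried regions that opened. Of 6 with member regions, 3 fell and 0 rose at day 14, and over the whole list 11 of 17 fell. Among all genes tested, 6.34% fell and 9.53% rose. Tcf21, a transcription factor of lipid-laden alveolar fibroblasts with 2 regions, had 11093, 7875, 6920 and 7411 reads in sham, 3955, 2377, 2325 and 2471 at day 14, and 8509, 10434, 11765 and 7111 at day 56 (-1.59 ± 0.21, limma adjusted p = 0.000177, then 1.78 ± 0.21, limma adjusted p = 0.000115). Its day 14 libraries lay below all others. The growth factor gene Fgf10, with 1 region 230309 bases away, changed by -1.28 ± 0.19 (limma adjusted p = 0.000505). Cdh11 (0.37 ± 0.17, limma adjusted p = 0.18) and Wnt2 (-0.41 ± 0.24, limma adjusted p = 0.289) did not pass.

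Member regions were also annotated to markers of other cells. Of 9 leukocyte markers with member regions, 8 rose and 0 fell at day 14, against 9.53% and 6.34% of all genes tested. Laptm5, a lysosomal protein of blood cells, had 466, 697, 415 and 556 reads in sham and 2355, 2498, 1114 and 3384 at day 14 (2.05 ± 0.38, limma adjusted p = 0.00219). Ptprc rose by 1.43 ± 0.42 (limma adjusted p = 0.0345), a call lost without any of 6 single libraries. Of the endothelial markers, Erg, an ETS transcription factor, had 11, 11.3, 54.1 and 90.2 in sham and 306, 420, 201 and 406 at day 14 (3.45 ± 0.62, limma adjusted p = 0.00169, and 2.15 without the libraries of few detected genes), whereas Pecam1, which encodes CD31, changed by 0.34 ± 0.32 (limma adjusted p = 0.551) and Cdh5 by 0.23 ± 0.58 (limma adjusted p = 0.85). The mesothelial genes Wt1 and Upk3b and the epithelial genes Elf3, Hopx, Krt18 and Scgb1a1 did not pass. Abcc9, a pericyte marker with 1 region, changed by -0.80 ± 0.28 (limma adjusted p = 0.0705), a change that passed without the libraries of few detected genes (-0.70, limma adjusted p = 0.00918).

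The genes of largest rise among those annotated were mostly near silence in sham. They were named for that rise, so their day 14 values are a description. Chl1, a cell adhesion molecule, had 0, 0, 135 and 26.5 reads in sham and 7224, 13822, 10344 and 5951 at day 14, and a log2 change of 10.14. Grem1, a secreted BMP antagonist, had 0, 0, 1.00 and 16.8 in sham and 1838, 1853, 1457 and 2801 at day 14. The homeobox gene Gbx2 had 0 in all 4 sham libraries and 120, 182, 252 and 307 at day 14. These 3 carried a member region at the promoter. Tnfsf18 and Tnfsf8, which encode ligands of the tumour necrosis factor family, rose by 8.62 and 8.16, Serinc2 by 8.19 and Inava by 8.06. In 6 of the 8 genes sham replicates 1 and 2, which detected few genes, were at 0 while replicates 3 and 4 were not. Without those libraries the log2 changes were 7.15 for Chl1, 8.32 for Grem1, 6.91 for Tnfsf18, 6.20 for Serinc2, 6.55 for Tnfsf8 and 7.09 for Inava. At day 56 the genes had come down without reaching 0 in most libraries, Chl1 to 452, 328, 238 and 526, Grem1 to 76.7, 0, 59.1 and 156, and Tnfsf18 to 14.9, 28.5, 0 and 32.9. On 32 kPa, 6 of the 8 rose, Grem1, Inava, Gbx2, Serinc2, Spp1 and Tnfsf18, by 2.40 to 8.63. Tnfsf8 did not pass (-1.64 ± 0.97, limma adjusted p = 0.149) and 1 gene, Chl1, fell. Grem1 rose from 9.13, 0 and 2.59 to 924, 915 and 2653 (8.63 ± 0.69, limma adjusted p = 8.46e-07), while Chl1 fell from 2037, 724 and 2048 to 4.32, 8.96 and 1.39 (-8.17 ± 0.56, limma adjusted p = 2.37e-07).

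The genes of largest fall carried mostly 1 member region each. Colq, which anchors acetylcholinesterase in the matrix, had 1667, 1902, 1345 and 1345 reads in sham, 143, 70.4, 71.5 and 67.3 at day 14, and 1551, 848, 1687 and 570 at day 56, a log2 change of -4.20 at day 14. Prokr1, a prokineticin receptor, went from 1041, 645, 1125 and 472 to 80.1, 83.2, 98.2 and 40.0 and back to 450, 687, 539 and 543. Pcsk6, a proprotein convertase, went from 636, 577, 909 and 369 to 110, 53.6, 36.5 and 61.0. All 3 recovered by day 56 (limma adjusted p = 1.86e-05 for Colq, 9.45e-05 for Prokr1 and 0.000437 for Pcsk6). Slc34a2, a phosphate transporter typical of alveolar type II epithelium, had 265, 443, 322 and 337 in sham, 52.8, 13.6, 9.74 and 42.1 at day 14, and 53.3, 0, 79.4 and 134 at day 56. Its change from day 14 to day 56 did not pass (0.17 ± 1.19, limma adjusted p = 0.951). Without the libraries of few detected genes it was 1.83 and did not pass either (limma adjusted p = 0.0713). Nor did Slc34a2 pass at day 56 against sham (-3.60 ± 1.19, limma adjusted p = 0.686), so its recovery is undecided. The epithelial sums above also fell at day 14. Esr2, 4930404H11Rik, Pacsin1 and Gm14812 fell from low levels, at most 126 reads in sham. The call of Gm14812 (limma adjusted p = 0.0226) ended by edgeR, without the libraries under 20000000 reads, without those of few detected genes, and without any of 3 single libraries. That of Pacsin1 also ended by edgeR, with a pseudocount of 0.5, without the filter, under the replicate block and without the libraries of few detected genes, and that of Slc34a2 with that pseudocount and without the filter. The day 14 calls of Slc34a2 and Pacsin1 were at the threshold (limma adjusted p = 0.0438 and 0.0467) and ended without any of 8 and any of 7 single libraries.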

How the data were processed

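RNA-seq and ATAC-seq libraries of the 6 groups entered as the authors deposited them. The submitters' processing notes name HISAT2, Picard, featureCounts, Subread, DESeq2, Bowtie2, SAMtools, MACS2, bedtools, DiffBind and HOMER with the build mm10. Not given in the sources used here are versions, parameters, the read shift for the transposase, the strandedness of counting, and whether peak calling was done by sample or on a pool. Without a stated strand setting, reads of overlapping or antisense genes cannot be told apart.

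The deposited ATAC lists hold, per the file headers, log2 concentrations per group and, for each region, an FDR, a p-value and a log2 fold. These are group values, so no test on regions was made. Sham, day 14 and day 56 values of the first 2 injury lists are on a single scale, since day 14 values were equal in all 13517 regions with the same coordinates. The third injury list lay 0.28 log2 units apart from it. The gel lists are separate. ATAC depth was not analysed here. Motif letters were counted in the 300 bases at each region's centre, or up to 500 bases on each side for profiles, in RefSeq GRCm38.p6 sequence.

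The deposited RNA tables hold normalised signal per gene and library. Every value was a whole multiple of a read within a tolerance of 0.05 reads (100%), so count data could be recovered, 14288605 to 51288435 reads per C57BL/6 and 35858180 to 69524944 per CD1 library. The authors also deposited a log2 fold and an adjusted p-value per gene, which were not used. CD1 rows without a symbol (855) were left out. Each table was rescaled by median-of-ratios factors and filtered at a mean of 1. Limma-trend (limma 3.58.1, R 4.3.3) was fitted to log2(value + 1) with a pseudocount of 1, in a single fit per table, for 21111 C57BL/6 and 18488 CD1 genes, with Benjamini-Hochberg adjustment over all of them and a threshold of 0.05. edgeR 4.0.16 and DESeq2 1.42.0 on the recovered reads, other pseudocounts and filters, values as deposited, a replicate block and leaving out single libraries were alternatives. Leaving out the 3 libraries under 20000000 reads, or the 4 that detected under 18000 genes, was added after seeing the data. The procedure was tested on simulated data. The labels give no batch.

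Members, gene lists and tests were chosen with earlier results of these data known. Genes named are the 10 with the most member regions, the 8 largest rises and 8 largest falls at day 14, and up to 4 per list with the most member regions, which brought in the lists of collagens, matricellular glycoproteins, activation transcription factors, the TGF-beta pathway, contractile genes, WNT and BMP genes, cell cycle genes and cell type markers. Regions named are the 8 of largest gain, the largest of each such gene, and 3 beside each threshold.

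Replicate numbers did not pair the libraries. Deviations from group means of libraries with the same number correlated at -0.16 to 0.12 in C57BL/6 and -0.16 to 0.07 in CD1.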

Additional observations from a re-analysis of the deposited data

Results flagged for a closer look

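Of 202 groups of 4 C57BL/6 libraries among the named genes, 17 held a library whose log2 value stood apart from the other 3 by more than Dixon's 95% limit, a gap that chance gives in about 5% of groups. Day 56 replicate 3 did so most often, with 0 reads of Tnfsf8, Adam12 and Wnt10a, 582 of Tead1 and 52.1 of Upk3b. That library detected 16545 genes, the fewest of the C57BL/6 libraries, from 40283444 reads. Day 14 replicate 1 stood apart with 143 reads of Colq, 32790 of Col6a3 and 3955 of Tcf21. Postn had 18302 reads and Wt1 23.1 in day 56 replicate 4, Runx2 162 in day 14 replicate 3, and Scgb1a1, a secreted protein of airway epithelium, 58.1 in sham replicate 3. Megf11 had 0 reads in sham replicate 1 and Itgax, an integrin of dendritic cells and macrophages, 0 in sham replicate 2. The other flags were at near-silent genes, Gm7538 with 2.13 reads in day 56 replicate 1, 1810053B23Rik with 4.21 in day 14 replicate 4 and 6030471H07Rik with 0.885 in sham replicate 4.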

How the results depend on the processing

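At day 14 more annotated genes were higher than lower under all alternative fits of the RNA, and both counts stayed within 1.5 times of the values reported, except that 574 were lower without the 4 libraries of under 18000 detected genes, an alternative chosen after seeing the data. That alternative also gave 474 higher from day 14 to day 56 and 9 higher at day 56 against sham. Against day 14, the 254 genes higher at day 56 became 168 on values as deposited (808 lower), where the median of all genes shifted from -0.08 to -0.27, and 144 (309 lower) without the libraries under 20000000 reads, likewise chosen after seeing the data. Against sham at day 56, the 0 higher and 0 lower became 16 and 5 with DESeq2, and 1 was lower on values as deposited. Leaving out single libraries gave 447 to 567 higher and 219 to 325 lower at day 14, 167 to 314 and 378 to 580 from day 14 to day 56, 0 to 3 and 0 to 0 for day 56 against sham, 1055 to 1126 and 1683 to 1790 on 0.2 kPa, and 1068 to 1138 and 1776 to 1894 on 32 kPa. With fewer libraries in the fit, part of such losses follows from the smaller sample. With the replicate number as a block, which the pairing check did not bear out, the counts were 554 and 257 at day 14, 210 and 497 from day 14 to day 56, 0 and 0 against sham, 1119 and 1768 on 0.2 kPa, and 1108 and 1852 on 32 kPa. Asking for a log2 difference of at least 2 in both injury lists left 2818 member regions, 1.49% at promoters, 56.2% with AP-1 and 47.9% with RUNX letters. Counting a gene only where its start lay within 10 kb left 346 of the 917 genes called at day 14. The cause of the other shifts was not tested. None of the named genes reversed its direction where the main or the alternative fit passed the threshold. Changes that passed in neither fit could differ in sign. Elf3 at day 14 changed by 0.65, and by -0.88 without the libraries of few detected genes. The shallowest library held 14288605 reads, and changes of genes with under about 20 reads per library rest on few counts.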

Other observations

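Several runs of member regions lay close together next to a single gene. Within chr10:83094113-83104628, 6 member regions were annotated to Chst11, and within chr1:161351083-161376182, 6 were annotated to Tnfsf4, which encodes a ligand of the tumour necrosis factor family, with a median gain of 3.50. At Eea1, an early endosome gene, 7 member regions had a median gain of 2.91. Of the regions at the 10 genes with the most member regions, Megf11 had 0 shared with the stiff gel, whereas Bmper had 9 shared with it, 7 gained without a recorded closing and 7 lost.

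Member regions that overlapped a repeat element made up 17.4% of the set, 7.50% on long terminal repeats (LTR), against 20.2% and 8.83% of the regions shared with the stiff gel.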
